A study of Mus musculus with 6 samples.

Results

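The Myc, Mycn and Max network is a family of 10 transcription factor genes: Myc, Mycn, Mycl, Max, Mxd1, Mxd3, Mxd4, Mxi1, Mnt and Mlx. All 10 were measured, out of 18193 genes on the array. They were compared between 2 sorted populations of blood-forming cells of wild-type C57BL/6 mice, with 3 arrays of each. LSK cells (lineage markers low, Sca-1+, Kit+) are labelled as haematopoietic stem cells, although this gate also takes in multipotent progenitors. LK cells (lineage markers low, Sca-1-, Kit+) are labelled as progenitors and hold cells already committed to the erythroid and myeloid lines. No treatment or genetic change is named for either group, both were lysed directly for RNA, and neither age nor number of animals per array is given in the sources used here. The genes were chosen by name, and for each one the probe set was selected on its mean log2 intensity over the 6 arrays, the highest being taken. These means, given only as a description, lay between 2.63 for Mycl and 9.20 for Mxi1.

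Proteins of this family bind DNA in pairs through a basic helix-loop-helix leucine zipper. Myc, N-Myc and L-Myc pair with Max and activate genes of growth, ribosome production and cell division, while the Mxd proteins, Mxi1 and Mnt pair with the same Max and bring in the Sin3 and histone deacetylase corepressors. Mlx is the partner of a parallel branch that responds to glucose products, through Mlxip (MondoA) and Mlxipl (ChREBP), and it also pairs with Mxd1, Mxd4 and Mnt. In bone marrow, Myc and N-Myc are known to act together in the survival and differentiation of stem cells, and Mxd1 is known to rise as myeloid cells leave the cell cycle.

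The shared binding site of these pairs is the E-box, CACGTG, which reads the same on both strands, so promoters of the family were searched for it and for an E2F-type site, TTTNGCGC, on either strand. RefSeq promoter windows on GRCm38.p6 were matched for 9 of the 10 genes (11 windows, Myc unmatched), and the 250 bases before the start were read. The E-box stood in 3 of the 11 windows, those of Mlx, Mnt and Mxd4, or 27.3%, against 6.02% of all 32851 windows and 7.38% of the 18109 windows of genes measured here. The E2F-type site stood in the window of Mycn alone among the family, with 3 matches that start 183, 179 and 168 bases before the start of the gene, the first and the second overlapping, against 1.13% of all windows. The window of Mycn, the gene with the largest difference between the populations, is shown first (chr12:12941837-12942086, minus strand), then those with an E-box, Mxd4 (chr5:34187711-34187960, minus strand), Mnt (chr11:74830674-74830923, plus strand) and Mlx (chr11:101087040-101087289, plus strand). Sequences run 5′ to 3′ in the direction of the gene, and capitals mark the matches, which are letters in a window and not shown to be bound here.
Mycn: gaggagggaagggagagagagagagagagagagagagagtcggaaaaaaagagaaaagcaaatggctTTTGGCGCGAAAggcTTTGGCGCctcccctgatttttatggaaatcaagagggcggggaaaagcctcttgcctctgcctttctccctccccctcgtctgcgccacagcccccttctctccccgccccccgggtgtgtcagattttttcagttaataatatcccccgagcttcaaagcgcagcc
Mxd4: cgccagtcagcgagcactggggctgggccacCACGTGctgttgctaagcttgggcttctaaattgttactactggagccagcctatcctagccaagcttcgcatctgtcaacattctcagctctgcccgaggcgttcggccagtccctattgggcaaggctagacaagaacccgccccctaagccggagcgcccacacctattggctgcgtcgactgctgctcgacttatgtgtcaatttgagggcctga
Mnt: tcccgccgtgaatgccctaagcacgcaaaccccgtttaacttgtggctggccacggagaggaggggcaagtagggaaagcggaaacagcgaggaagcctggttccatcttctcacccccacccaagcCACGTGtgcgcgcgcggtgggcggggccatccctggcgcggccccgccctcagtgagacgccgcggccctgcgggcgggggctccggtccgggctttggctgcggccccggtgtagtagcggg
Mlx: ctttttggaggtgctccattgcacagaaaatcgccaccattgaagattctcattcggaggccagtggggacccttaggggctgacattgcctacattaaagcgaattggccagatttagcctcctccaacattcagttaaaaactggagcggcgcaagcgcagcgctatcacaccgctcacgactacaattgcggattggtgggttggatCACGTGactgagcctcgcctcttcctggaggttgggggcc

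Over the whole array, 1225 genes, or 6.73%, passed the threshold, a limma adjusted p under 0.05 over all 18193 genes (3.84% higher and 2.89% lower in LSK). Arrays of both populations numbered 2 had a lower upper quartile of intensity (20.7 in LK and 22.0 in LSK) than the other 4 arrays (24.2 to 25.7). Their median intensity was higher (8.49 in LK and 8.36 in LSK) than that of the other 4 (7.88 to 8.06). The 3' minus 5' log2 signal of the Actb and Gapdh control probe sets, averaged, which is larger where RNA is shorter or amplification more 3' biased, lay between 2.32 and 3.30 in LSK and between 3.26 and 3.94 in LK (two-sided exact permutation test p = 0.2, smallest possible 0.1). With this measure in the model as a covariate 25 genes (0.137%) passed. Sca-1 itself (Ly6a) was not analysed here. Of the 4 other gate and progenitor genes, Flt3 and Cd34 were higher in LSK, or 50% against 3.84% of all genes. Kit and Ptprc also lay higher without overlap, 1.75-fold and 1.61-fold, but did not pass (limma adjusted p = 0.124 and 0.0555). Both passed where replicate number was a block (0.0185 and 0.027), as did 7.02% of all genes in that direction. The values below come from bulk RNA, in which fewer cells of a type and less RNA per cell cannot be told apart.

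Mycn was higher in LSK and was the only one of the 10 genes past the threshold; 1 of 10 stands against 6.73% of all genes. Its log2 intensity was 8.44, 8.30 and 8.11 on LSK arrays 1, 2 and 3 and 5.80, 3.63 and 4.26 on LK arrays 1, 2 and 3. The populations did not overlap, and the LK arrays were far more spread out than the LSK arrays, with replicate 1 well above the other 2. The LSK mean was 8.29 ± 0.17 (SD, n = 3) and the LK mean 4.56 ± 1.11 (SD, n = 3), a log2 difference of 3.72 (SE 0.51, 95% interval 2.50 to 4.95). This is 13.2-fold, with a 95% interval from 5.64 to 30.9. The limma adjusted p was 0.0122, and 0.00645 where replicate number was a block. LK replicate 2 lay under a log2 of 4, the level below which a probe set is called dim here.

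The Mycn call did not hold in every fit. The limma adjusted p was 0.0586 when LSK replicate 1 was left out and 0.0605 when LK replicate 3 was. Dropping both arrays numbered 2 gave 0.0544 for Mycn, and 2.95% of all genes passed that fit (2.04% higher). The 3' to 5' covariate gave 0.274. The log2 difference stayed between 2.88 and 4.34 in all fits on the same probe set, and it was 1.52 as the mean of its 3 probe sets. The other 2 probe sets of Mycn were dim, with LSK and LK means of 3.51 and 2.88 for one and 2.75 and 2.54 for the other. Both lay higher in LSK, by log2 differences of 0.64 and 0.20, and neither passed over all probe sets (adjusted p = 0.128 and 0.446).

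**Figure D1:**
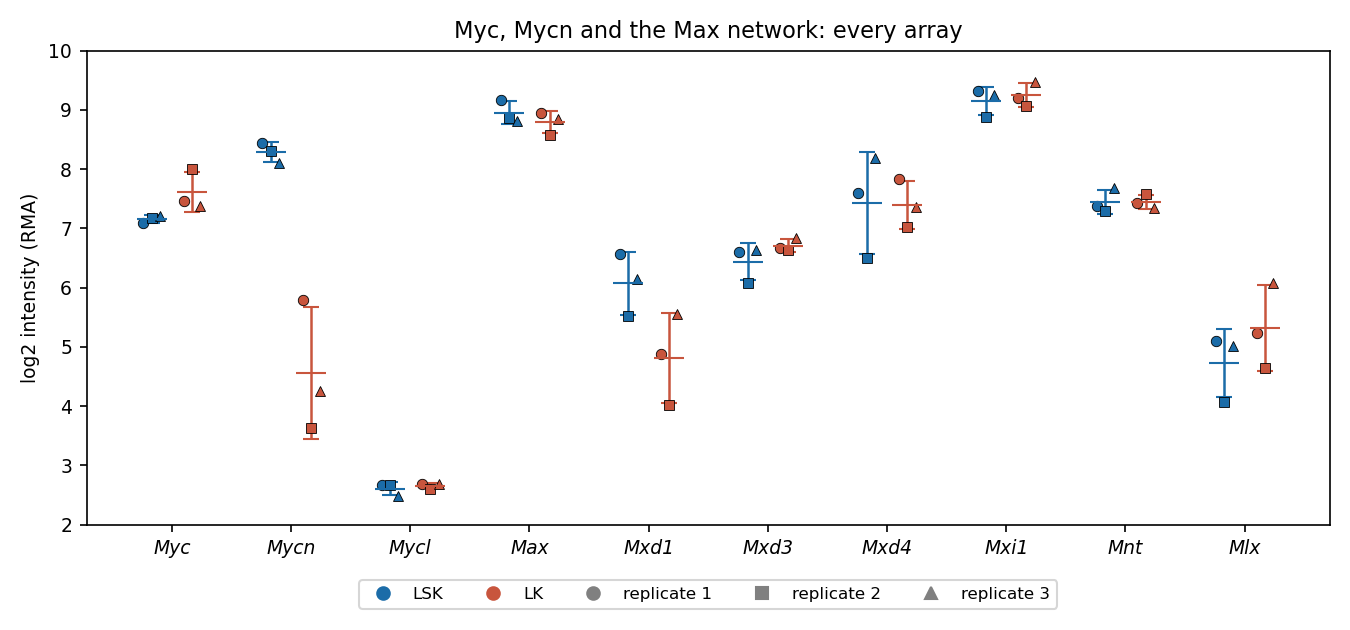
Log2 intensity (vertical axis) of the 10 genes on every array, LSK in blue and LK in red, with a marker shape for each replicate number. Horizontal ticks and bars are the mean and SD of 3 arrays; only Mycn and Myc have populations that do not overlap, with Mycn at 8.11 to 8.44 in LSK against 3.63 to 5.80 in LK.

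Myc, the founding member, lay in the other direction and did not pass. Its log2 intensity was 7.09, 7.18 and 7.20 on the LSK arrays and 7.47, 8.0 and 7.37 on the LK arrays. All LSK arrays lay below all LK arrays, LSK varied little, and LK replicate 2 stood above the rest. The means were 7.16 ± 0.06 (SD, n = 3) and 7.61 ± 0.34 (SD, n = 3), a log2 difference of -0.45 (SE 0.19, 95% interval -0.90 to -0.0014), with a limma adjusted p of 0.222. Populations without overlap were found for 2 of the 10 genes, Mycn and Myc, against 28.0% of all genes, so a separation like that of Myc was common on this array. Without LK replicate 2 the log2 difference was -0.26. Myc had 1 probe set, so it has no second reading on the array.

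Mycl, the third activator, was dim in both populations, with log2 intensities of 2.67, 2.67 and 2.48 in LSK and 2.69, 2.60 and 2.68 in LK. The values overlapped and lay at the lower end of the range, as did those of its other 2 probe sets. The log2 difference was -0.05 (95% interval -0.35 to 0.24), and at this level a change in either direction may not be visible.

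Max, the partner that activators and repressors share, was bright and similar on all arrays. Its log2 intensity was 9.17, 8.87 and 8.81 in LSK and 8.94, 8.58 and 8.84 in LK. The populations overlapped, and the log2 difference was 0.16 (95% interval -0.23 to 0.55, adjusted p = 0.635). The interval leaves out a change of the size seen for Mycn on the same arrays.

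Mxd1, the founding repressor of the Mxd group, had the second largest difference of the family. Its log2 intensity was 6.57, 5.51 and 6.14 in LSK and 4.87, 4.03 and 5.55 in LK. LSK was the higher array in each pair of the same number, but LSK replicate 2 and LK replicate 3 overlapped. The means were 6.07 ± 0.53 (SD, n = 3) and 4.82 ± 0.76 (SD, n = 3), a log2 difference of 1.26 (SE 0.43, 95% interval 0.23 to 2.28) or 2.39-fold. It did not pass (limma adjusted p = 0.144). With a block for replicate number it did (0.0269), and in that fit 2 of the 10 genes passed against 14.4% of all genes. A second probe set of similar brightness read 5.95, 4.54 and 5.80 in LSK and 5.27, 4.82 and 5.02 in LK, with overlap and a log2 difference of 0.39 (adjusted p over all probe sets 0.661). The 2 probe sets thus gave the same direction and different sizes.

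**Figure D2:**
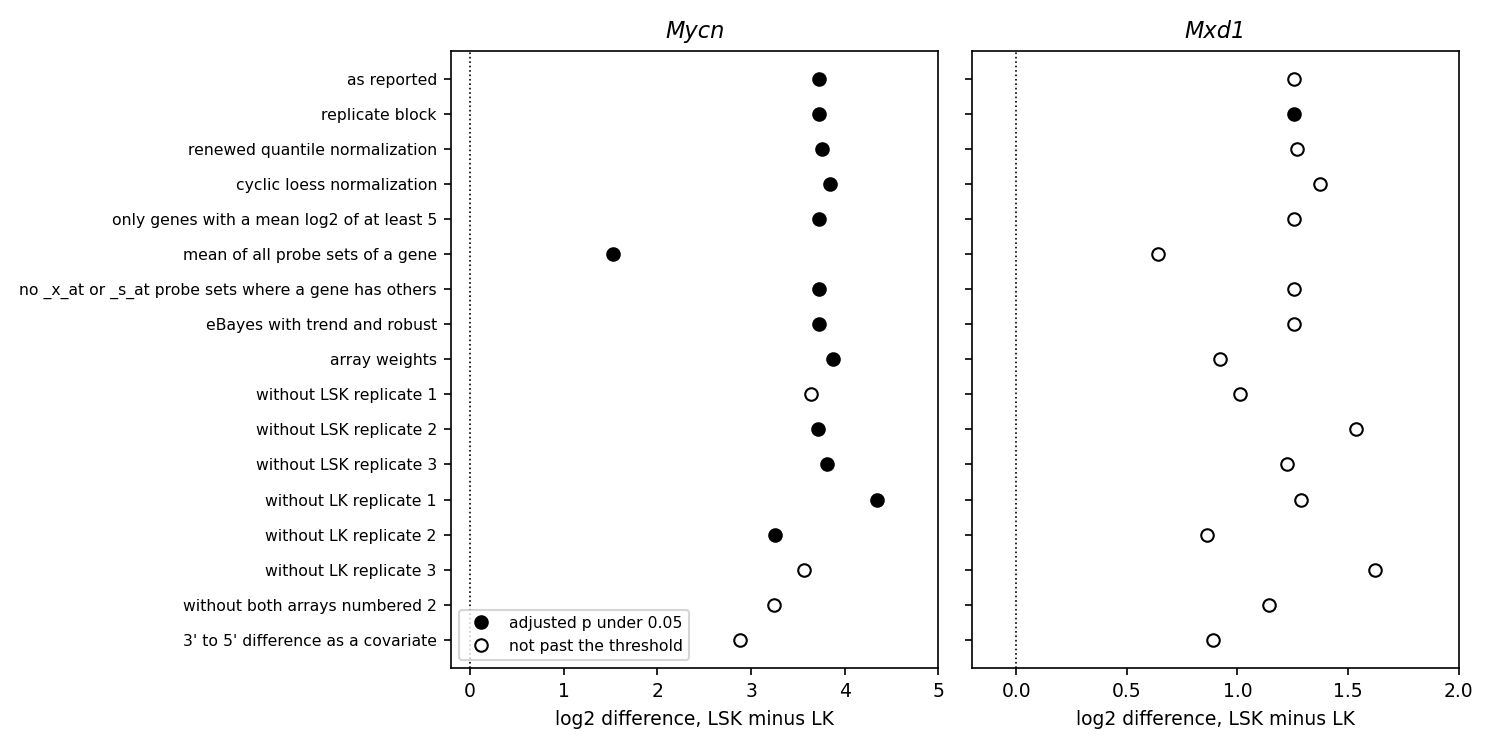
Log2 difference of Mycn (left) and Mxd1 (right), LSK minus LK, as reported and under each of 16 alternatives, filled where the adjusted p was under 0.05. Mycn was past the threshold under 12 of the 16 and Mxd1 under 1, the replicate block, and neither changed direction.

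The other repressors gave intervals on both sides of 0. Mxd3, a paralog known from dividing cells, read 6.61, 6.09 and 6.63 in LSK and 6.66, 6.63 and 6.83 in LK. Each LK array was above its LSK partner of the same number, and the log2 difference was -0.27 (95% interval -0.70 to 0.17, adjusted p = 0.469). Mxd4, which is known from differentiating and resting cells, read 7.60, 6.50 and 8.20 in LSK and 7.83, 7.02 and 7.36 in LK. Its LSK arrays spanned the whole range of its values, with an SD of 0.86 against a median SD of 0.21 over all genes, and the log2 difference of 0.03 had the widest interval of the repressors (-1.01 to 1.08).

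Mxi1, another Mxd paralog, and Mnt, a repressor that most cell types express, were bright and steady. Mxi1 read 9.31, 8.88 and 9.25 in LSK and 9.20, 9.07 and 9.47 in LK, a log2 difference of -0.10 (95% interval -0.52 to 0.33). Mnt read 7.37, 7.30 and 7.68 in LSK and 7.43, 7.58 and 7.35 in LK, a log2 difference of -0.0039 (95% interval -0.37 to 0.36). Both sets of arrays overlapped, and neither interval reaches a log2 difference of 1.

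Mlx read 5.11, 4.07 and 5.01 in LSK and 5.23, 4.64 and 6.08 in LK. LK was the higher array in 3 of 3 pairs of the same number, the populations overlapped, and the log2 difference was -0.58 (95% interval -1.60 to 0.44, adjusted p = 0.498).

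**Figure D3:**
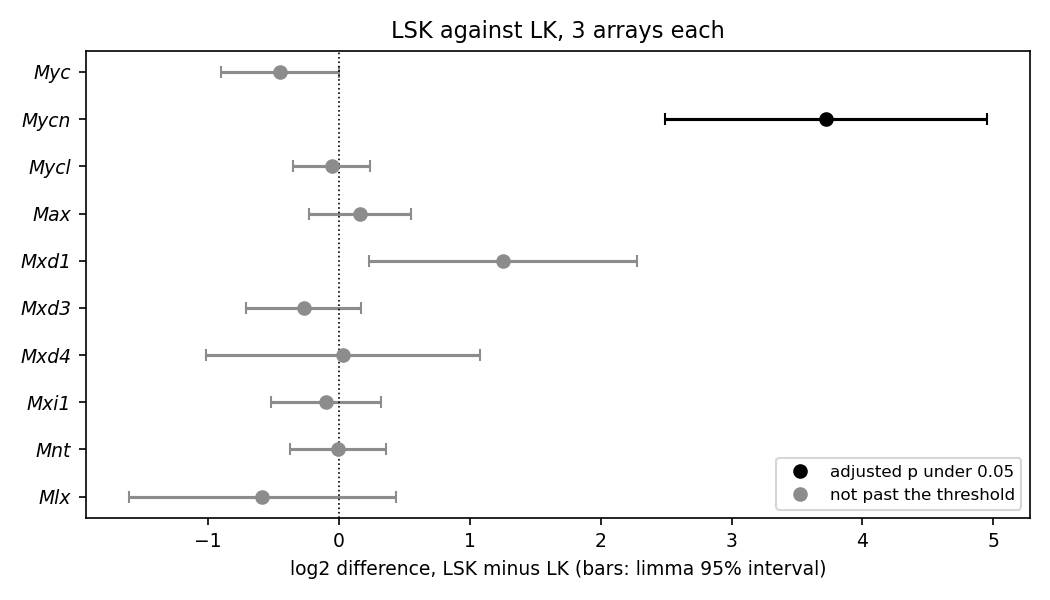
Log2 difference of each gene, LSK minus LK (horizontal axis), with the 95% interval of limma over 3 arrays of each population. Mycn at 3.72 is the only point past the threshold (black), the interval of Mxd1 starts at 0.23, and those of Myc, Mycl, Max, Mxd3, Mxi1 and Mnt stay within 1 of 0.

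Across the 10 genes the median log2 difference was -0.03, beside -0.02 over all genes, with 4 above 0 and 6 below. The median size of the difference, regardless of sign, was 0.21 for the family and 0.22 for all genes. Mycn, Mxd1 and Myc, 3 of the 10, had an unadjusted limma p under 0.05, against 22.4% of all genes. The level on arrays numbered 2 was a feature that several of the genes shared. In both populations that array was the lowest of the 3 for Mxd1, Mxd3, Mxd4, Mxi1 and Mlx, 5 of the 10 genes, against 23.2% of all genes. These are the arrays with the low upper quartile and the high median. The part of array quality in the levels of these genes was not tested.

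Of the 24 probe sets of the family, 14 did not represent their gene. Of these, 13 were dim, their LSK and LK means both under a log2 of 4, the exception being the second probe set of Mxd1. None of the 14 passed limma over all probe sets, and 1 had an unadjusted p under 0.05, a dim Mycn probe set.

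**Figure D4:**
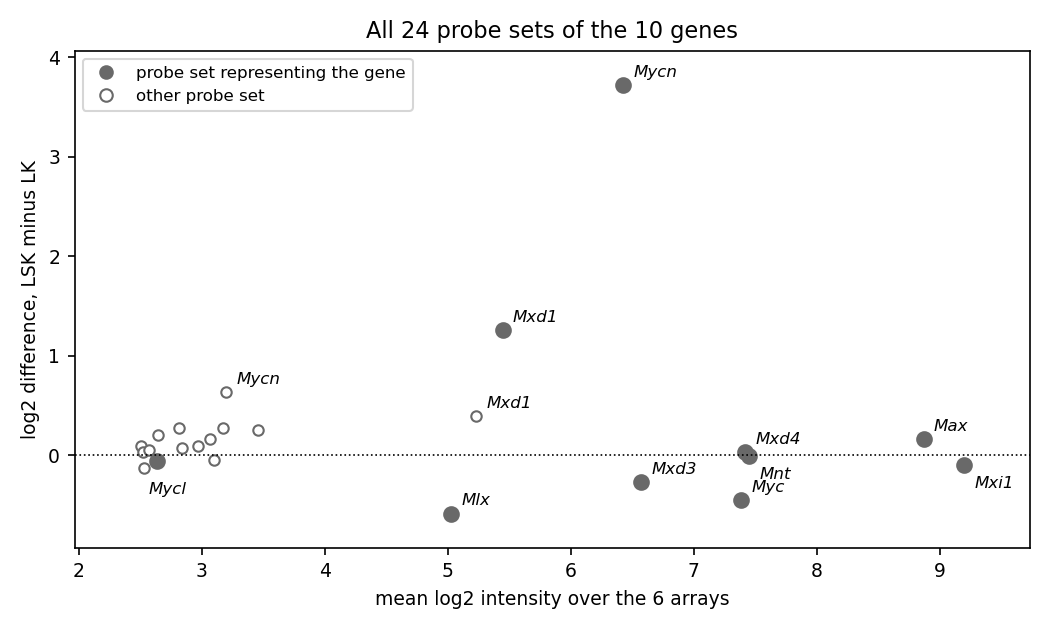
Log2 difference (vertical axis, LSK minus LK) against the mean log2 intensity over the 6 arrays (horizontal axis) for all 24 probe sets, filled where the probe set represents its gene. The unfilled points crowd below a mean of 4 and near 0, apart from the second Mxd1 probe set at 5.23.

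The 3 genes whose profile over the 6 arrays was closest to that of Mycn, by the Euclidean distance between log2 values centred on each gene's mean, were Myct1 (distance 0.40), Gimap6 (0.63) and Afdn (0.65). Myct1 read 9.13, 9.07 and 8.64 in LSK and 6.69, 4.59 and 5.26 in LK, with LK replicate 1 the highest and replicate 2 the lowest of its population. The folds of the 3 genes were 10.8, 18.1 and 11.7. Since they were picked for their likeness to Mycn on these same arrays, their folds and the order of their arrays follow from that choice and are a description, with no test.

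Partners and cofactors of the family were read from lists of the pathway. Besides Mlx, the network holds Mlxip, Mlxipl and Mga, a large repressor that pairs with Max. None of these 3 passed limma, with 2 at an unadjusted p under 0.05, against 22.4% of all genes. Without overlap, 2 lay higher and 1 lower in LSK, against 28.0% of all genes in either direction. Mlxip read 6.89, 6.96 and 6.71 in LSK and 6.02, 6.32 and 6.30 in LK, without overlap, a log2 difference of 0.64 (limma adjusted p = 0.0502, blocked 0.0442). Mga had a log2 difference of 0.47 (adjusted p = 0.188), and Mlxipl was dim, with means of 2.40 and 2.64.

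Among 9 measured corepressor genes of the Sin3 and histone deacetylase complexes, limma called 0 (4 at an unadjusted p under 0.05, against 22.4% of all genes). Their median log2 difference was -0.13, and the lowest p belonged to the deacetylase Hdac2 (7.26 ± 0.20 in LSK and 7.98 ± 0.23 in LK, SD, n = 3, adjusted p = 0.062). Among 14 coactivator genes 1 was lower and 0 higher by limma, 7.14% lower against 2.89% of all genes. At an unadjusted p under 0.05, 1 was higher and 5 were lower, against 22.4% of all genes in either direction. It was the acetyltransferase Kat2a, also known as GCN5, 2.17-fold lower in LSK (adjusted p = 0.03), which was lost in 5 of the 6 fits without 1 array (up to 0.0813) and had 2 dim probe sets with no such difference.

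Of 13 measured genes of Myc protein turnover and related control, 2 were lower in LSK and 0 higher by limma. This is 15.4% lower against 2.89% of all genes, with a median log2 difference of -0.41. An unadjusted p under 0.05 was found for 2 higher and 6 lower, against 22.4% of all genes in either direction. Skp2, the F-box protein of a ubiquitin ligase that acts on Myc and on the inhibitor p27, averaged 5.80 ± 0.29 (SD, n = 3) across LSK arrays and 7.09 ± 0.20 (SD, n = 3) across LK arrays, 2.45-fold lower (limma adjusted p = 0.0148, or 0.0565 without LK replicate 3). A second probe set of Skp2 also passed over all probe sets, in the same direction. Trib2, a pseudokinase best known for the degradation of C/EBPα and not of Myc, was 6.47-fold lower (adjusted p = 0.0214). The suffix of its probe set marks one shared by several transcripts, and its other 2 probe sets were dim. Where such probe sets were set aside for others of the same gene, the log2 difference of Trib2 was -0.25 (limma adjusted p = 0.592). The call was also lost without LSK replicate 1 or LSK replicate 2 (up to 0.0776). Fbxw7, the F-box protein that marks phosphorylated Myc for degradation, lay 1.54-fold higher in LSK and did not pass (limma adjusted p = 0.101, blocked 0.0321).

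Among 14 genes placed upstream of Myc or Mycn, 2 were higher and 1 was lower in LSK, or 14.3% and 7.14% against 3.84% and 2.89% of all genes. The Wnt pathway factor Tcf7l2 read 8.49, 8.06 and 8.30 in LSK and 5.99, 4.78 and 4.92 in LK. It was 8.32-fold higher (limma adjusted p = 0.00611), and a second, dim probe set passed in the same direction. The receptor Notch1, whose signal is known to induce Myc in lymphoid cells, was 3.14-fold higher (adjusted p = 0.00487). Pvt1, a long noncoding RNA gene next to Myc, was lower in LSK at 3.09, 4.38 and 3.82 against 7.16, 5.99 and 5.68 in LK (5.71-fold, adjusted p = 0.0295). The call of Pvt1 was lost when any of LSK arrays 1 and 3 or LK arrays 2 and 3 was left out (adjusted p up to 0.0916), and 1 of its 4 other probe sets differed the same way at an unadjusted p under 0.05. E2f1, which binds sites like those in the Mycn window shown above, did not pass, with a log2 difference of -0.06 (adjusted p = 0.945).

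Of 67 measured genes that Myc is known to induce, 15 were lower in LSK and 0 higher. This is 22.4%, against 2.89% of all genes lower, and the median log2 difference was -0.58 beside -0.02 over all genes. At an unadjusted p under 0.05, 2 were higher and 35 lower, against 22.4% of all genes in either direction. The 15 were Srm, Bop1, Shmt2, Cad, Ndufaf4, Nop2, Utp20, Hspd1, Slc19a1, Mphosph10, Noc4l, Dkc1, Phb2, Hspe1 and Mybbp1a, with folds from 1.55 to 4.42 and adjusted p from 0.00657 to 0.0482. Srm, the spermidine synthase, read 7.43, 6.87 and 7.90 in LSK and 9.82, 9.35 and 9.46 in LK. Bop1, a factor of large ribosomal subunit assembly, read 4.68, 4.32 and 4.92 in LSK and 6.63, 6.18 and 6.43 in LK. Neither overlapped, and both were kept in all 6 fits without 1 array.

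The number lower depended on the arrays. Leaving out LSK replicate 1, 2 or 3 gave 3, 8 and 16 genes lower, beside 0.434%, 1.12% and 3.77% of all genes lower. Leaving out LK replicate 1, 2 or 3 gave 8, 11 and 5, beside 1.53%, 1.71% and 0.418%. The count was 5 (0.912% of all genes) when both arrays numbered 2 were dropped. It was 0 under the 3' to 5' covariate, where limma called 0 genes of the array lower. The median log2 difference of the list stayed between -0.72 and -0.43 in the fits without 1 array. With the block 28 were lower and 2 higher, against 7.36% and 7.02% of all genes. Not all known targets passed. Cdk4, a cyclin-dependent kinase, had a log2 difference of -0.0013 and Ccnd2, the cyclin D2 gene, of 0.21, neither past the threshold. Ccnd1 and Nip7 lay the other way, 3.31-fold and 2.06-fold higher in LSK without overlap. They did not pass (limma adjusted p = 0.0993 and 0.0922), but both did with the block (0.00823 and 0.0405).

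The E-box stood in 12 of the 67 promoter windows matched to 57 of these genes, or 17.9%, against 7.38% of the windows of genes measured here. For those lower in LSK, 15 windows were matched to 13 genes. The E-box stood in 2 of these windows, those of Hspd1 and Nop2, or 13.3%. The window of Nop2, an rRNA methyltransferase, is shown because it held both motifs (chr6:125131633-125131882, plus strand), with the E-box 60 bases and the E2F-type match 8 bases before the start. Nop2 was 2.42-fold lower in LSK (adjusted p = 0.0104).
Nop2: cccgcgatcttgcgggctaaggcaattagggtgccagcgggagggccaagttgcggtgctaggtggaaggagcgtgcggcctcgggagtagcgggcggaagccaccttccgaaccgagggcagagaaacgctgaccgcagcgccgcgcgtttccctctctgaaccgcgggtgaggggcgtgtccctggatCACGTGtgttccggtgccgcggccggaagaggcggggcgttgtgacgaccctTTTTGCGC

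Of 20 measured genes that Myc is known to repress, 3 were higher in LSK and 0 lower by limma. With an unadjusted p under 0.05 there were 7 higher and 1 lower, against 22.4% of all genes in either direction. The 3 higher by limma made 15%, against 3.84% of all genes, beside a list median log2 difference of 0.07. They were Ndrg1, which is named for its repression by N-Myc (2.31-fold, limma adjusted p = 0.0265), the progenitor surface gene Cd34 (2.57-fold, adjusted p = 0.0111), and Cdkn1b, which encodes the inhibitor p27 (1.52-fold, adjusted p = 0.0418). Ndrg1 read 9.86, 9.48 and 9.71 in LSK and 8.90, 8.23 and 8.30 in LK. Mycn was higher in the same population, and a link between these genes was not tested. The count higher was 0 without LSK replicate 1 or LK replicate 3, fits in which 322 and 306 genes of the array passed in either direction. It was 1 without LSK replicate 3 or LK replicate 2, where 1269 and 767 genes passed. With the block it was 8 higher and 1 lower, against 7.02% and 7.36% of all genes. The probe set of Ndrg1 can cross-hybridise, and 2 of its other 4 probe sets differed the same way at an unadjusted p under 0.05.

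Targets of Mlx and its partners were divided. Of 8 measured, 2 were higher and 3 lower in LSK, or 25% and 37.5% against 3.84% and 2.89% of all genes. Txnip, the thioredoxin-binding protein that restrains glucose uptake and the best known MondoA target, read 10.51, 10.78 and 9.72 in LSK and 8.46, 7.77 and 7.89 in LK. It was 4.91-fold higher (limma adjusted p = 0.0123), and its relative Arrdc3 was 2.68-fold higher (adjusted p = 0.0182). Pklr, the pyruvate kinase of liver and red cells, read 3.18, 2.48 and 3.78 in LSK, where it was dim on every array, and 9.26, 6.89 and 7.86 in LK. Its 29.0-fold difference (limma adjusted p = 0.00896) therefore rests on LSK values near the lower end of the range. The other 2 probe sets of Pklr were dim and had log2 differences of -0.42 and 0.18 (limma adjusted p over all probe sets 0.563 and 0.639). Fasn, the fatty acid synthase, was 2.13-fold lower (adjusted p = 0.0243) and Acaca, the acetyl-CoA carboxylase, 1.94-fold lower (0.0151). The calls of Txnip and Arrdc3 did not hold once array 1 of LSK or array 3 of LK was dropped (adjusted p up to 0.0776), and Fasn was lost in 5 of the 6 fits without 1 array (up to 0.0902).

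**Figure D5:**
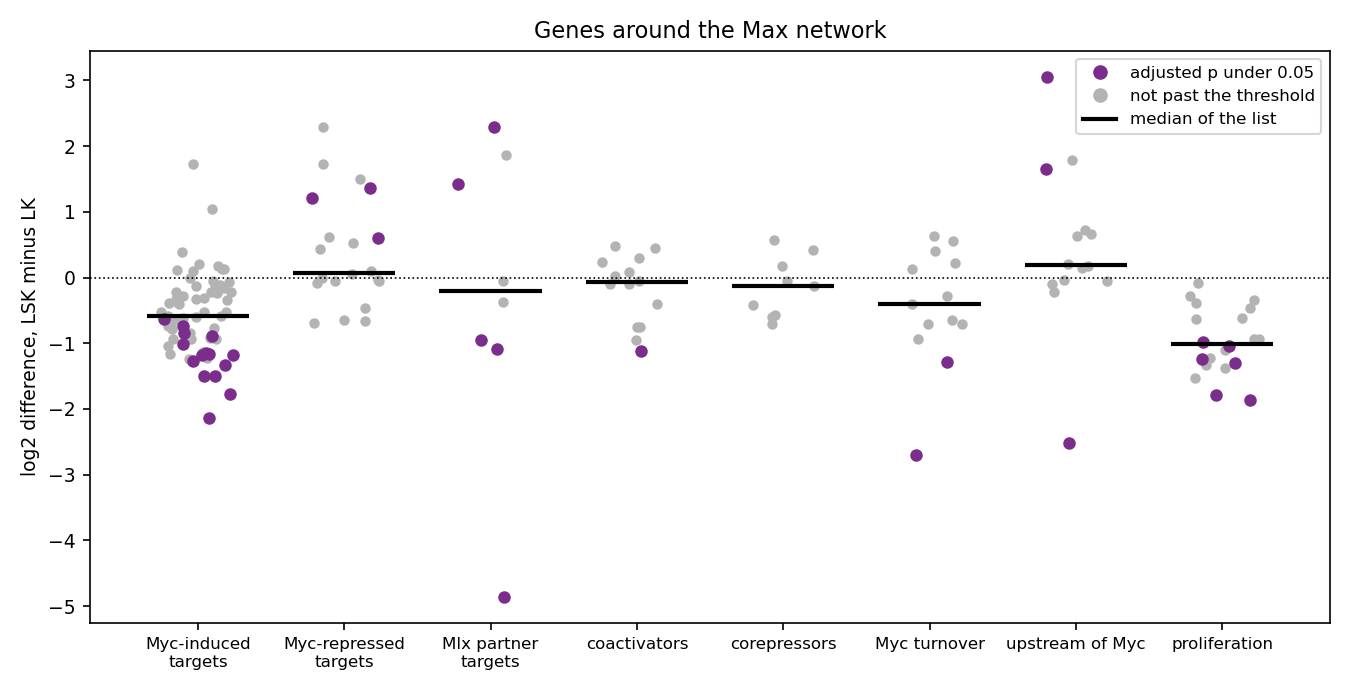
Log2 difference, LSK minus LK (vertical axis), of every measured gene in 8 lists around the network, purple where the adjusted p was under 0.05, with a black line at the median of each list. The Myc-induced targets centre on -0.58 and the proliferation genes on -1.01, and the cofactor lists lie near 0.

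Other cell features moved with these lists. Of 20 proliferation genes, 6 were lower in LSK and 0 higher by limma, or 30% lower against 2.89% of all genes. At an unadjusted p under 0.05, 0 were higher and 14 lower, against 22.4% of all genes in either direction. All 20 had a log2 difference below 0 (median -1.01), among them the kinetochore genes Cenpe (3.66-fold, limma adjusted p = 0.0263) and Bub1 (3.44-fold, 0.0071). The count of 6 was 1 when array 1 of LSK, array 1 of LK or array 3 of LK was dropped (0.434%, 1.53% and 0.418% of all genes lower). It was 3 when array 3 of LSK was dropped (3.77% of all genes lower). It was 0 with the covariate (0 of all genes lower) and 13 with the block (7.36% of all genes lower). Of 7 erythroid markers 4 were lower in LSK, or 57.1% against 2.89% of all genes. They were led by Ermap (81.4-fold, with an LSK mean of 3.67 in the dim range) and Car1 (66.7-fold). The summed intensity was 72.9 to 142 on the LSK arrays and 2426 to 6025 on the LK arrays. The late erythroid genes Hba-a1 and Slc4a1 were dim in both.

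Granulocyte and monocyte markers were divided. Of 9, 4 were lower in LSK and 0 higher by limma, or 44.4% lower against 2.89% of all genes. An unadjusted p under 0.05 was found for 1 higher and 5 lower, against 22.4% of all genes in either direction. In all, 4 of the 9 had a log2 difference above 0. The neutrophil granule genes Elane and Ctsg lay lower by log2 differences of -2.81 and -1.97 (limma adjusted p = 0.041 and 0.0388). The lysozyme gene Lyz2 lay the other way without overlap, at 9.39 to 10.07 in LSK and 8.24 to 8.99 in LK (limma adjusted p = 0.051, blocked 0.0103), as did the secondary granule gene Ltf with overlap (0.377, blocked 0.0154). The count of 4 lower was 0 without array 1 or 2 of LSK (0.434% and 1.12% of all genes lower). It was also 0 without array 2 or 3 of LK (1.71% and 0.418%) and 0 without both arrays numbered 2 (0.912%). The summed intensity of the 9 markers was 12067 to 18937 in LSK and 18482 to 34902 in LK.

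Of 10 megakaryocyte and mast cell markers 1 was lower in LSK and 0 higher by limma, or 10% lower against 2.89% of all genes. With an unadjusted p under 0.05 there were 1 higher and 4 lower, against 22.4% of all genes in either direction. Sums were 219 to 611 in LSK and 444 to 1158 in LK. The gene called was the mast cell receptor gene Ms4a2 (3.55-fold, with an LSK mean of 2.71 in the dim range), which was lost in 4 of the 6 fits without 1 array. Its other probe set was dim, with a log2 difference of -0.20 (limma adjusted p over all probe sets 0.555). The count lower was 0 to 2 without 1 array (0.418% to 3.77% of all genes lower) and 4 with the block (7.36%). The platelet gene Gp9 lay the other way without overlap, 1.98-fold higher in LSK (limma adjusted p = 0.067, blocked 0.0241). All 8 lymphoid markers measured were dim in LSK and in LK, and limma called 0 of them (0 at an unadjusted p under 0.05). The part of cell cycle and lineage make-up in the differences of Mycn and of the Myc targets was not tested.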

How the data were processed

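Per the labels' protocols, total RNA of each of the 6 samples went through a linear amplification and biotin labelling before hybridisation to an Affymetrix mouse expression array. The authors deposited linear probe set intensities. RMA, affy and R 2.11.0 are named in the submitters' processing notes, and the genome build is not given in the sources used here. Quantile normalisation within RMA hides any shift common to all genes, and folds near the lower end are compressed. The number of arrays limits the precision.

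Here the deposited intensities were taken to log2. Of 45101 probe sets, 64 were controls, 932 carried several symbols and 9160 none in the platform annotation used. The other 34945 carried 1, updated through RefSeq for 34741. Each of 18193 genes took its brightest probe set. Both populations were compared by limma 3.58.1 under R 4.3.3, using lmFit and eBayes, two-sided, with no other term and Benjamini-Hochberg adjustment over all genes. Tested on simulated data, the fit recovered 80 of 100 genes changed by a log2 of 2 and 86 of 100 changed by 3. Folds are the higher over the lower population.

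The members and the 14 gene lists (204 of 217 genes measured; Aurka and Cd34 stand in 2 lists) were chosen with earlier results of these data known. Named were the 10 members, for each list the 2 genes past the threshold with the largest difference in each direction or else the one with the lowest p, and the 3 genes closest to a member that passed. Mga, Mlxipl, Fbxw7, E2f1, Cdk4, Ccnd2, Ccnd1, Nip7, Cdkn1b, Acaca, Kit, Ptprc, Hba-a1, Slc4a1, Lyz2, Ltf, Gp9, Ddx1, its neighbours and the rest of the 15 Myc-induced targets were added after their values were seen.

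Replicate numbers 1 to 3 stand in the labels of both populations. Deviations from the population means correlated across genes at 0.42, 0.43 and 0.27 for the same number and at most 0.04 for different numbers. Such deviations sum to 0 within a population, so part of this contrast is built in. In the replicate block alone the numbers were taken to pair the arrays, a pairing that comes from the data and not from the design. The main fit held no term for it. Nothing says that arrays came from separate animals, so p-values measure only the spread between these samples, which may be technical. No 2 arrays were identical (0 of 15 pairs). The alternatives were the replicate block, other normalisations, probe set choices and variance models, array weights, a filter, leaving out arrays and the 3' to 5' covariate. The filter kept genes with a mean log2 of at least 5, above the level of 4 that defines dim.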

Additional observations from a re-analysis of the deposited data

How the results depend on the processing

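Over all genes the count of 1225 was 2617 with the replicate block, 2606 with array weights, 537 without both arrays numbered 2, 25 under the 3' to 5' covariate, and 306 to 1269 without 1 array. The other 6 settings stayed within 1.5 times. The count of family members past the threshold, 1, was 2 with the replicate block, 0 without both arrays numbered 2, 0 with the covariate, and 0 to 1 without 1 array. Mycn, Mxd1, Myc, Mxd3 and Mlx kept their direction in all 16 alternatives. Members near 0 did not. Max was -0.11 with the covariate. Mxi1 was 0.089 as the mean of all probe sets and -0.18 to 0.036 without 1 array. Mnt was 0.047 with renewed quantile normalisation, 0.11 with cyclic loess, 0.014 as the mean of all probe sets, 0.088 with array weights, 0.14 without both arrays numbered 2, 0.29 with the covariate, and -0.12 to 0.073 without 1 array. Mxd4 ranged from -0.35 to 0.50 and Mycl from -0.085 to 0.0091 without 1 array. None of these 5 genes passed in any alternative. Of the 22 list genes named by the rule as past the threshold, 9 held in all 6 fits without 1 array, 22 with the replicate block and 1, Flt3, with the covariate. Signal over background limits Mycl, whose probe sets were all dim. It could not be fitted under the filter, which kept only genes with a mean log2 of at least 5.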

Other observations

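The measured genes next to Myc and Mycn in the RefSeq order of GRCm38.p6 were read after the values of the family were seen. Beside Mycn, the RNA helicase gene Ddx1 lay lower in LSK while Mycn was higher, with LSK at 8.23 ± 0.24 and LK at 8.97 ± 0.04 in log2 intensity (mean and SD of 3 arrays each) and a limma adjusted p of 0.0394. It was lost in 5 of the 6 fits without 1 array (adjusted p up to 0.133). On its other side 4921511I17Rik was dim in both populations (2.41 and 2.57). Beside Myc, Pvt1 was lower in LSK as given above, and 4930402D18Rik was dim (2.63 and 2.59).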
